A study of Rattus norvegicus with 4 samples.

Results

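The genes of the proteasome were compared between the superficial zone (SFZ) and the deeper layers (deep AC) of rat articular cartilage. They were taken as the rows of the expression table whose symbol starts with Psma, Psmb, Psmc, Psmd, Psme, Psmf or Psmg and a digit and which are not 0 in all 4 libraries. 48 of 31007 rows matched these letters. Of these, 1 row, the pseudogene Psme1-ps1, was listed at 0 throughout, which left 47 members. They comprised 18 core genes (Psma and Psmb), 17 cap genes (Psmc and Psmd), and 10 genes of activators, the inhibitor and assembly factors. The remaining members were Psma3l, which is annotated on the Psma3 locus, and Psmc3ip, which shares the letters but encodes a factor of meiotic recombination and no subunit.

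SFZ is the thin layer at the joint surface, and deep AC is the cartilage under it. Both were cut by laser microdissection from frozen sections of the proximal tibia of 2 Sprague-Dawley rats aged 10 weeks, with no treatment named in the labels. Each rat gave 1 library of each zone, made from linearly amplified polyA RNA, so the comparison rests on 2 within-rat differences, SFZ minus deep AC. The labels name no genetic change, and each library comes from a single animal.

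The proteasome is the protease that degrades most short-lived and misfolded proteins of the cytosol and nucleus, after these have been tagged with ubiquitin. Its barrel-shaped core is built from rings of alpha subunits, which gate the entry, and rings of beta subunits, some of which hold the active sites. The cap recognizes ubiquitin, unfolds the substrate with a ring of ATPases and feeds it into the core. Interferon induces alternative catalytic subunits that replace the constitutive ones and form the immunoproteasome, and other activators can bind the core in place of the cap. In cartilage, where chondrocytes live long and secrete large amounts of matrix protein, the proteasome takes part in protein quality control.

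The deposited values are on the log2 scale with the median of each gene's 4 libraries set to 0, so a value says how far a library lies above or below that gene's own middle and carries no absolute level. All values below are on this log2 scale unless reads are named. Values below 1 scaled read had been set to 1, the floor. Reads could be recovered for 3 members that touch this floor. For another 19 members the smallest whole reads that match the 4 values were found, and the true reads are these or a common multiple of them. In SFZ the floor stands for 0 reads, and in deep AC for 0 or 1, where fractions of a read are left aside.

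Most proteasome genes differed little between the zones, and none passed the test. Of the 47 members, 46 reached the minimum of a mean of 10 scaled reads. Psmb8, at 8.97, did not, and Psmb9 reached it at 10.3 only through its deep AC libraries. With limma fitted to all 8761 rows and p-values adjusted over all of them, 0 of the 46 members passed an adjusted p of 0.05, while 0.0114% of all rows did. The members' adjusted p-values ran from 0.522 to 0.999. At an unadjusted p under 0.05 there were 0 members, against 9.54% of all rows. This fit has 1 residual degree of freedom. An exact permutation test of 2 against 2 libraries that ignores the pairing cannot go below p = 0.333, and one that keeps the rats paired has fewer arrangements.

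The median of the members' mean differences was 0.01, against -0.11 over all rows tested, and 0.03 without the 2 tested members at the floor. In rat 1 the members' median was -0.13, the same as over all rows, and in rat 2 it was 0.26 against 0.00. 29 of the 46 members (63.0%) lay within 2-fold between the zones in both rats, against 33.7% of all rows tested and 43.7% of the 6243 rows that averaged 100 scaled reads or more. The 2-fold band was counted for every tested member, Psmb9 and Psma3l included, which lay outside it.

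**Figure D1:**
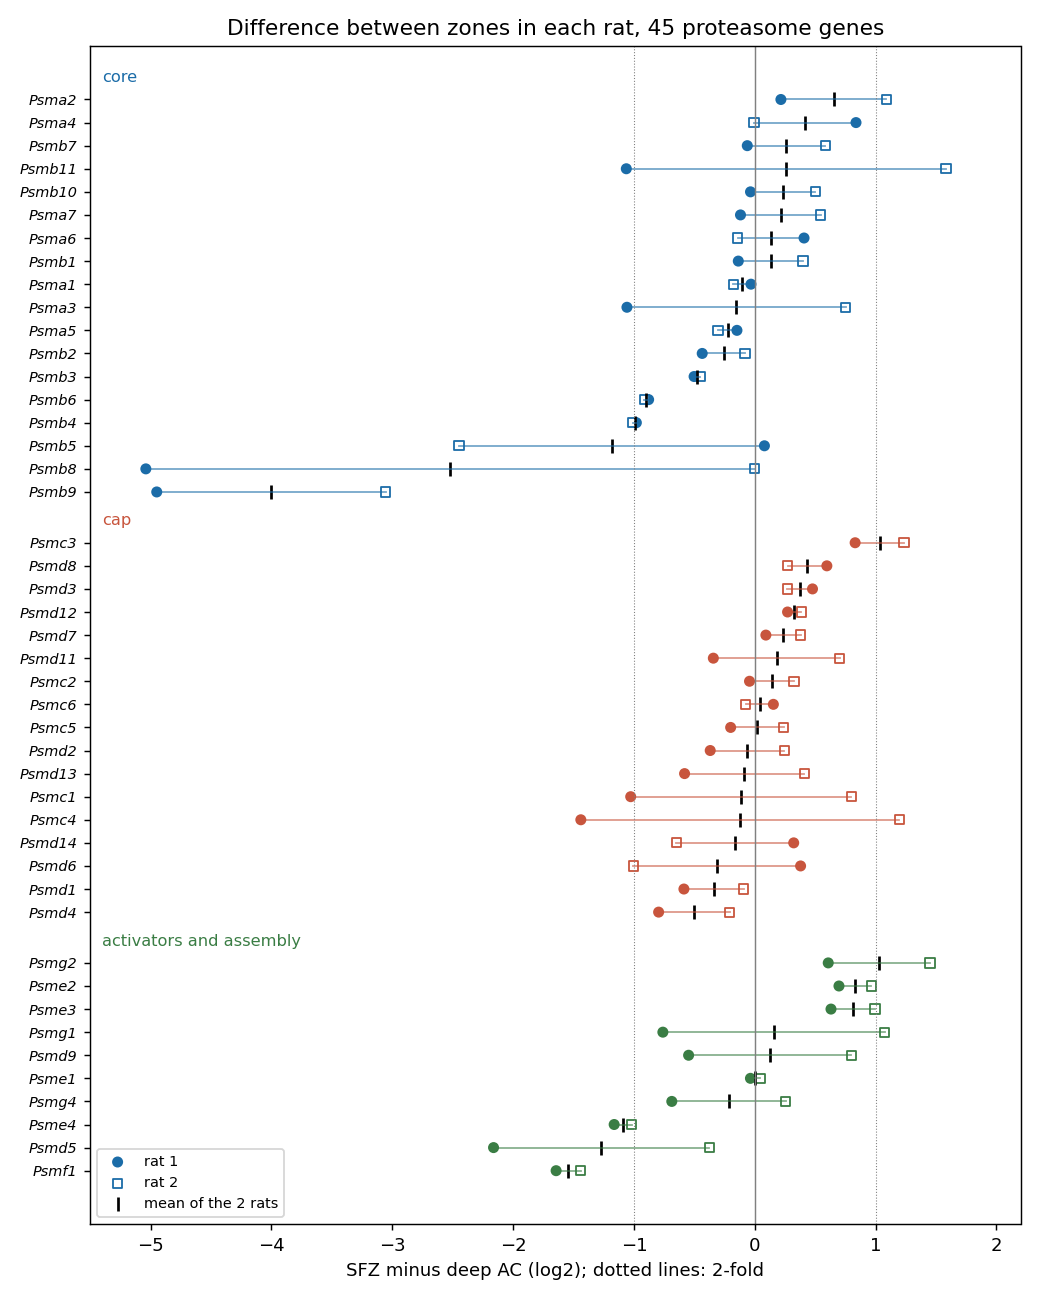
Within-rat log2 difference, SFZ minus deep AC (x axis), for the 45 genes assigned to a class (y axis), with filled circles for rat 1, open squares for rat 2 and a tick for their mean. Psmb9 lies far to the left in both rats and Psmb8 in rat 1 alone, with 0 in rat 2, while Psmb4, Psmb6, Psmf1 and Psme4 are left of 0 with nearly equal values in the 2 rats, and Psmb5 and Psmd5 are low in 1 rat.

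The signs in the 2 rats were counted beside those of all rows. 10 members (21.7%) were higher in SFZ in both rats, against 25.2% of all rows. 12 members (26.1%) were lower in SFZ in both rats, against 29.0% of all rows. 24 members (52.2%) went opposite ways in the 2 rats, against 43.1% of all rows. In 7 members (15.2%) both SFZ libraries lay above both deep AC libraries, against 19.6% of all rows. In 11 (23.9%) both lay below, against 22.9%. No member was at least 2-fold higher in SFZ in both rats, which 6.44% of all rows were. 3 members (6.52%), Psmb9, Psme4 and Psmf1, were at least 2-fold lower in both, against 11.9% of all rows.

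The alpha ring genes stood close to 0. The 7 genes Psma1 to Psma7 had a median difference of -0.03 in rat 1 and -0.01 in rat 2. For Psma1 the smallest matching reads were 1768 and 1834 in SFZ, and 1853 and 2248 in deep AC. Psma5 had -0.07 and -0.16 in SFZ against 0.07 and 0.14 in deep AC. Both genes were slightly lower in both SFZ libraries, with mean differences of -0.10 ± 0.10 and -0.22 ± 0.11 (SD, n = 2 rats).

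Psma2 was the only core gene higher in SFZ in both rats. It had values of 0.11 and 0.89 in SFZ against -0.11 and -0.20 in deep AC. The SFZ libraries lay above both deep AC libraries, most of all in rat 2, and the mean difference was 0.65 ± 0.62 (SD, n = 2 rats; limma adjusted p = 0.718). Psma4 was high in a single library, SFZ rat 1. Its smallest matching reads were 3599 and 1645 in SFZ, and 2065 and 1791 in deep AC, and its difference was 0.84 in rat 1. The remaining alpha ring genes Psma6 and Psma7 and the beta ring gene Psmb1 went opposite ways in the 2 rats, with differences between -0.14 and 0.55.

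Psma3 cannot be read apart from Psma3l. In the rn4 annotation the 2 rows overlap on the plus strand of chromosome 6 over 18882 bases (93092191 to 93111072). In SFZ, Psma3l had 693 reads in rat 1 and 0 in rat 2, and in deep AC it was at the floor in rat 1 and had 856 reads in rat 2. Neither higher value was a whole number of reads. Psma3 had values of -0.33 and 0.33 in SFZ against 0.73 and -0.42 in deep AC. Psma3 was thus lower in the 2 libraries in which Psma3l had reads, SFZ rat 1 and deep AC rat 2, and higher in the other 2. The sources used here do not say how reads were divided between the rows, so no zone difference is read from either gene.

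Among the beta ring genes, Psmb4 and Psmb6 had similar and closely repeated differences. Psmb4, a subunit without an active site (Entrez 58854, chromosome 2, 189778476 to 189781162, minus strand), had values of -0.72 and -0.26 in SFZ against 0.26 and 0.75 in deep AC. Both SFZ libraries lay below both deep AC libraries, and the within-rat differences were -0.98 and -1.01. They averaged -0.99 ± 0.02 (SD, n = 2 rats), with an SE of 0.44 and an adjusted p of 0.531 by limma.

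Psmb6, which carries the caspase-like active site of the constitutive core (Entrez 29666, chromosome 10, 57370397 to 57372704, plus strand), had values of -0.13 and -0.79 in SFZ against 0.75 and 0.13 in deep AC. The smallest matching reads were 454 and 294 in SFZ, and 856 and 601 in deep AC, and again the zones did not overlap. The differences averaged -0.90 ± 0.03 (SD, n = 2 rats), with an SE of 0.41 and an adjusted p of 0.542 by limma. The SE of limma is larger than the spread of these 2 rats because it draws on the spread of all rows. Psmb3, another subunit without an active site, stood at -0.48 ± 0.04, with -0.26 and -0.23 in SFZ against 0.24 and 0.23 in deep AC, and Psmb2 at -0.26 ± 0.25 (SD, n = 2 rats). Over the 7 genes Psmb1 to Psmb7 the median difference was -0.43 in rat 1 and -0.45 in rat 2. Of these genes 4 (57.1%) were lower in both rats, against 29.0% of all rows, and 0 were higher in both, against 25.2%.

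Psmb5 and Psmb7 carry the other active sites of the constitutive core, the chymotrypsin-like and the trypsin-like one. Psmb5 had values of 0.04 and -2.22 in SFZ against -0.04 and 0.22 in deep AC. SFZ rat 2 stood apart, with 495 reads against 2327 in SFZ rat 1 and 2258 and 2927 in deep AC as the smallest matching numbers. Its differences of 0.08 and -2.45 therefore rest on 1 library, and its mean was -1.18 ± 1.79 (SD, n = 2 rats; limma adjusted p = 0.643). Without SFZ rat 2 the difference was -0.05. Psmb7 had values of -0.12 and 0.64 in SFZ against -0.05 and 0.05 in deep AC, and the rats went opposite ways.

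The immunoproteasome genes Psmb8 and Psmb9 had no reads in SFZ. Psmb8, the interferon-induced counterpart of Psmb5 (Entrez 24968, rn4 chromosome 20, 4786260 to 4789223, minus strand), had 0 reads in both rats in SFZ. In deep AC it had 33 reads in rat 1 and was at the floor in rat 2, so its reads came from 1 library alone. With the reads of the 2 rats summed, Psmb8 was at least 10.8-fold lower in SFZ, taking 3 counts over the group as the limit for 0 reads. This limit takes the deep AC sum as exact and is no limit for a single rat. In rat 2 both zones were at the floor. Psmb9, the counterpart of Psmb6 (Entrez 24967, rn4 chromosome 20, 4801187 to 4806608, plus strand), likewise had 0 reads in both rats in SFZ. In deep AC it had 31 reads in rat 1 and 9 in rat 2. On the summed reads Psmb9 was at least 12.9-fold lower in SFZ by the same limit, which again does not apply to each rat.

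The differences of Psmb9 were -4.95 and -3.05, the lowest mean among the tested members, and their size depends on the floor. Their SD was 1.34 (n = 2 rats), with an SE of 1.90 and an adjusted p of 0.556 by limma. The difference of Psmb9 was -4.95 without deep AC rat 2, -3.05 without deep AC rat 1 and -1.42 with quantile normalization. The same pattern, no SFZ library above the floor and every deep AC library above it, was found in 3.32% of all rows tested, and the reverse pattern in 0.308%. Both SFZ libraries had fewer rows above the floor, 8262 and 8390, than the deep AC libraries, 10026 and 9237. Amplified reads are not independent molecules, and the fold limits of Psmb8 and Psmb9 cover counting error in SFZ only.

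The remaining immunoproteasome gene, Psmb10, the counterpart of Psmb7, had reads in every library. Its values were 0.04 and -0.04 in SFZ against 0.08 and -0.55 in deep AC, and its smallest matching reads were 334 and 321 in SFZ, and 351 and 246 in deep AC. SFZ lay between the 2 deep AC libraries, with a mean difference of 0.23 ± 0.38 (SD, n = 2 rats; limma adjusted p = 0.914). Psmb11, known as the catalytic subunit of the thymus, stood at -0.20 and 0.20 in SFZ against 0.86 and -1.38 in deep AC. Its differences of -1.06 and 1.58 had opposite signs.

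**Figure D2:**
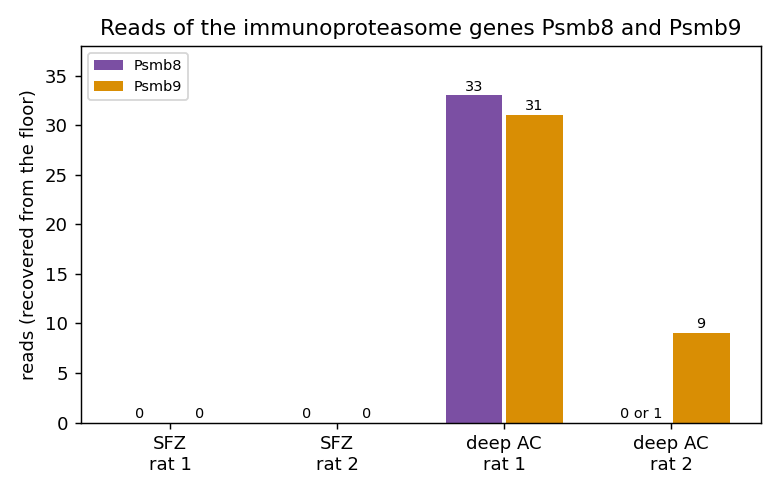
Recovered reads (y axis) of the immunoproteasome genes Psmb8 and Psmb9 in each of the 4 libraries (x axis, SFZ left of deep AC), 1 bar per gene and library with the number above it. Both genes have 0 reads in both SFZ libraries, deep AC rat 1 has 33 and 31 reads, and in deep AC rat 2 Psmb9 has 9 reads while Psmb8 is at the floor.

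The promoters of the catalytic subunits are shown because Psmb8 and Psmb9 had no SFZ reads while their constitutive counterparts Psmb5 and Psmb6 had reads in every library. Each window runs from 250 bases before to 50 bases after the start of the gene in RefSeq on build GRCr8, which is not the build of the deposited table, and is written 5′ to 3′ on the strand of the gene. Capitals mark every match on either strand to 4 motifs. These are TGACNNNGC (the core of the antioxidant response element, which NFE2L1 and NFE2L2 bind), CCAAT, TTCNNNGAA (the gamma-activated site) and the core of the interferon-stimulated response element, which is GAAA followed after 2 bases by another GAAA.
Psmb8 (chr20:4656982-4657281, minus strand): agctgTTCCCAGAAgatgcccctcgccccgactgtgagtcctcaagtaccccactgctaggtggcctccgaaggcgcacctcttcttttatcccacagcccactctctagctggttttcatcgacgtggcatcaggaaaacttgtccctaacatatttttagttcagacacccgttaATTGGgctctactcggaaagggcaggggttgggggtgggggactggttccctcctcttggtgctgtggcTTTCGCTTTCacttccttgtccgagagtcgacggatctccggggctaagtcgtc
Psmb5 (chr15:32047330-32047629, minus strand): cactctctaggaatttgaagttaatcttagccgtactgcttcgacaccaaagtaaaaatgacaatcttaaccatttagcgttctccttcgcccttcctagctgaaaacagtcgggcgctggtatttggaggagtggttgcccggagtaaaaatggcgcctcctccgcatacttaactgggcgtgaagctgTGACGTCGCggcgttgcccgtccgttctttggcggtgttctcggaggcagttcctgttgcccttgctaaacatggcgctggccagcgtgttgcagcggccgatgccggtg
Psmb9 (chr20:4668750-4669049, plus strand): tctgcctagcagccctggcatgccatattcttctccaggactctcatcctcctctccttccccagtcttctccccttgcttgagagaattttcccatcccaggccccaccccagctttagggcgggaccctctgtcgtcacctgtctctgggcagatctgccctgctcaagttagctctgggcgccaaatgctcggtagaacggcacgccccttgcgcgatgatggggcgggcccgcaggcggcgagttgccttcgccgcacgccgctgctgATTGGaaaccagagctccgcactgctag
Psmb6 (chr10:55737638-55737937, plus strand): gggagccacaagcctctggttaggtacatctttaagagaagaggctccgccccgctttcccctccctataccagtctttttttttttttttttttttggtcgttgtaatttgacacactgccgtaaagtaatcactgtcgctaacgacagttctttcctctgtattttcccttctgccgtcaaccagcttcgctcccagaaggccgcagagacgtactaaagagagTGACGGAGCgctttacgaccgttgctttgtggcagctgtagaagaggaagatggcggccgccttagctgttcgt
Psmb10 (chr19:50743243-50743542, minus strand): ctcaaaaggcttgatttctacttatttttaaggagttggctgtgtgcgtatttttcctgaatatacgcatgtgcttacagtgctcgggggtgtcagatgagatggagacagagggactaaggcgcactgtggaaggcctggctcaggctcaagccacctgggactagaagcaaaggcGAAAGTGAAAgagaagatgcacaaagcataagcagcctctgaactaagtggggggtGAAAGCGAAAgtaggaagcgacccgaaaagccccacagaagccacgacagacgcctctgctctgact
Psmb7 (chr3:42827421-42827720, minus strand): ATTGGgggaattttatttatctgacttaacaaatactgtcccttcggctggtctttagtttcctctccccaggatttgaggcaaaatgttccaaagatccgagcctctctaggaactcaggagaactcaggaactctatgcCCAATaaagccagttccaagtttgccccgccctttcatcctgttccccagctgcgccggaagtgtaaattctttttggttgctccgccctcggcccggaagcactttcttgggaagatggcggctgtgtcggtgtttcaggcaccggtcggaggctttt

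Counted from base 1 of its window, Psmb8 held TTCCCAGAA at bases 6 to 14, ATTGG, which is CCAAT on the other strand, at 178 to 182, and TTTCGCTTTC, an interferon-stimulated response element core on the other strand, at 247 to 256. Psmb10 held GAAAGTGAAA at 178 to 187 and GAAAGCGAAA at 234 to 243. In Psmb9 the only match was ATTGG at 273 to 277. Psmb5 held the antioxidant response element core TGACGTCGC at 191 to 199 and Psmb6 held TGACGGAGC at 227 to 235, while Psmb7 held ATTGG at 1 to 5 and CCAAT at 142 to 146. No 2 matches overlapped in these 6 windows.

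A promoter was in the RefSeq table for 41 of the 47 members. The interferon-stimulated response element core was in 7 of these windows (17.1%), against 3.77% of 27457 promoters of the same length. The 7 genes were Psma4, Psmb3, Psmb8, Psmb10, Psmd7, Psme2 and Psmg4. They held no common pattern between the zones. Psma4, Psmb10 and Psmg4 went opposite ways in the 2 rats, Psma4 by only -0.005 in rat 2. Psmd7 and Psme2 were higher in SFZ in both, and Psmb3 was lower in both. Psmb8 had reads in deep AC rat 1 alone. The antioxidant response element core was in 8 windows (19.5%, against 12.2% of all promoters), CCAAT in 20 (48.8%, against 37.7%), and the gamma-activated site in 4 (9.76%, against 8.68%). A match in letters is not a bound site.

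The cap genes lay near 0, with a median difference of -0.04 in rat 1 and 0.27 in rat 2 over 17 genes. Of these, 13 (76.5%) were within 2-fold in both rats, against 33.7% of all rows. 5 (29.4%) were higher in SFZ in both rats, against 25.2% of all rows, and 2 (11.8%) were lower in both, against 29.0%. The other 10 (58.8%) went opposite ways, against 43.1%. The mean differences ran from -0.50 for Psmd4 to 1.03 for Psmc3.

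Psmc3, an ATPase of the base of the cap (Entrez 29677, chromosome 3, 75413567 to 75418945, plus strand), was the cap gene highest in SFZ. It had values of 0.41 and 0.82 in SFZ against -0.42 and -0.41 in deep AC. The zones did not overlap, and the difference averaged 1.03 ± 0.29 (SD, n = 2 rats), with an SE of 0.47 and an adjusted p of 0.541 by limma. The other 5 ATPase genes went opposite ways in the 2 rats. Psmc4 was the widest apart, with values of -1.35 and 1.11 in SFZ against 0.09 and -0.09 in deep AC. Psmc1 followed, with -0.93 and 0.70 in SFZ against 0.10 and -0.10 in deep AC, while Psmc2, Psmc5 and Psmc6 stayed between -0.20 and 0.33 in their 2 differences.

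In all 6 ATPase genes SFZ rat 2 was above SFZ rat 1, by a median of 0.37, against 4413 of the 8761 rows tested. Between the deep AC libraries of the same genes the median size of the difference was 0.15.

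Among the 8 members of the lid, the part of the cap that removes ubiquitin, none was lower in SFZ in both rats, against 29.0% of all rows. Of these members 4 (50.0%) were higher in SFZ in both rats, against 25.2% of all rows. The other 4 (50.0%) went opposite ways, against 43.1%, and the medians were 0.30 and 0.33. Shfm1, a lid gene outside the symbol rule, was lower in SFZ in both rats, at -1.02 and -0.33. Psmd8 had values of 0.45 and 0.14 in SFZ against -0.15 and -0.14 in deep AC, and its smallest matching reads were 1765 and 1454 in SFZ, and 1197 and 1305 in deep AC. Psmd3 had values of 0.28 and 0.13 in SFZ against -0.19 and -0.13 in deep AC. Both SFZ libraries of these genes lay above both deep AC libraries, with mean differences of 0.44 ± 0.23 for Psmd8 and 0.37 ± 0.15 for Psmd3 (SD, n = 2 rats).

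Psmd12 stood at 0.33 ± 0.08 and Psmd7 at 0.24 ± 0.20 (SD, n = 2 rats), but in both genes SFZ rat 1 did not exceed deep AC rat 2. Psmd14, the enzyme that cuts ubiquitin chains off the substrate, had values of 0.26 and -0.58 in SFZ against -0.06 and 0.06 in deep AC. Psmd6 had 0.22 and -0.84 in SFZ against -0.16 and 0.16 in deep AC, so that in both genes SFZ rat 1 was the highest library and SFZ rat 2 the lowest. Psmd11 and Psmd13 had the opposite order, with SFZ rat 2 highest and SFZ rat 1 lowest.

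The 3 members that bind ubiquitin or scaffold the base, Psmd1, Psmd2 and Psmd4, were lower in SFZ or near 0. Adrm1, a ubiquitin receptor outside the symbol rule, was higher in SFZ in both rats, at 1.62 and 1.39. Psmd4, a ubiquitin receptor, had values of -0.76 and -0.04 in SFZ against 0.04 and 0.17 in deep AC, with a mean difference of -0.50 ± 0.42 (SD, n = 2 rats; limma adjusted p = 0.712). Psmd1, a scaffold subunit, had values of -0.01 and -0.08 in SFZ against 0.57 and 0.01 in deep AC, and its mean was -0.34 ± 0.35. In both genes the zones did not overlap, though SFZ rat 2 of Psmd4 and deep AC rat 2 of Psmd1 were close to the other zone. Psmd1 overlaps Htr2b on the opposite strand over 12966 bases of chromosome 9 (84840019 to 84852984), and the sources used here do not say whether reads were counted by strand. Psmd2, the partner scaffold, stood at -0.37 and 0.25 in the 2 rats.

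**Figure D3:**
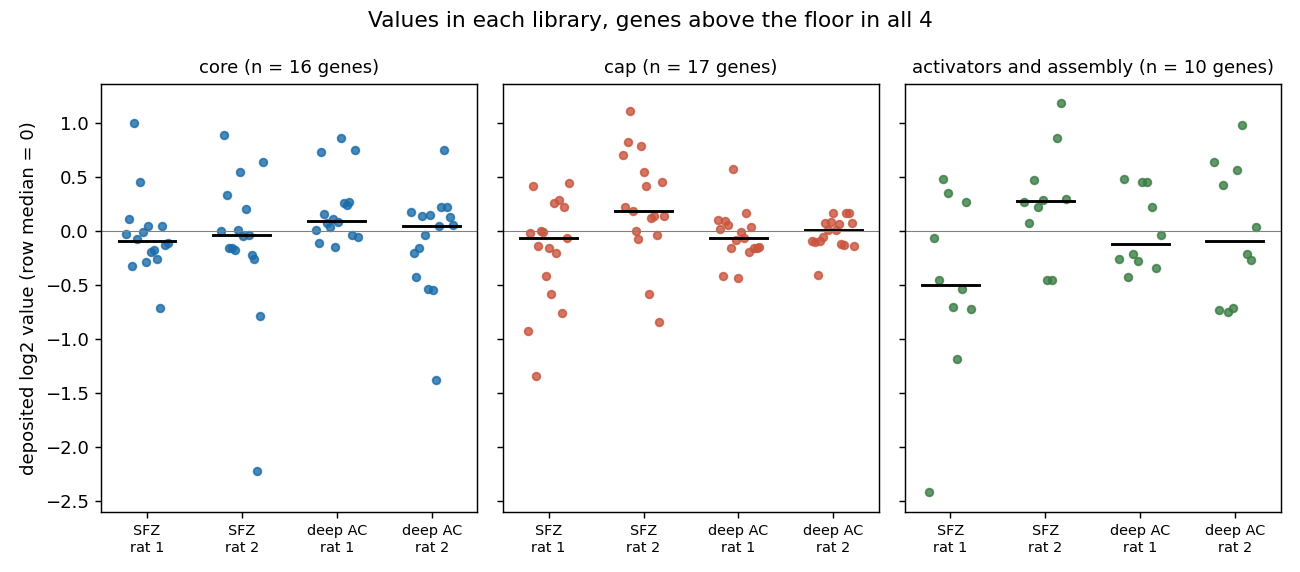
Deposited log2 values (y axis, median of each gene set to 0) in the 4 libraries (x axis, SFZ left of deep AC) for the core, cap, and activator and assembly genes above the floor in all 4 libraries, 1 point per gene, with a bar at the median. The cap genes lie closer together in the deep AC libraries than in the SFZ libraries, and the activator and assembly genes have medians of -0.50 in SFZ rat 1 and 0.27 in SFZ rat 2.

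The activators of the core had no common direction. Psme1 and Psme2 encode the interferon-inducible activator that binds the core in place of the cap. Psme1 had values of -0.46 and 0.47 in SFZ against -0.43 and 0.43 in deep AC, so the libraries of rat 1 were low and those of rat 2 high in both zones, and the within-rat differences were -0.04 and 0.04. Psme2 had values of 0.48 and 0.22 in SFZ against -0.22 and -0.75 in deep AC, and the differences averaged 0.83 ± 0.19 (SD, n = 2 rats), with an SE of 0.45 and an adjusted p of 0.604 by limma. Psme3, an activator of the nucleus, had values of 0.35 and 0.28 in SFZ against -0.28 and -0.71 in deep AC, with a mean of 0.81 ± 0.26 (adjusted p = 0.620 by limma). In Psme2 and Psme3 both SFZ libraries lay above both deep AC libraries.

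Psme4 and Psmf1 stood the other way. Psme4, a large activator that binds the core singly (Entrez 498433, chromosome 14, 111892871 to 111997184, plus strand), had values of -0.71 and -0.45 in SFZ against 0.45 and 0.57 in deep AC. Its differences of -1.16 and -1.02 gave a mean of -1.09 ± 0.10 (SD, n = 2 rats; SE 0.45) and the lowest adjusted p of the members, 0.522 by limma. Psmf1, an inhibitor of the core in the test tube (Entrez 689852, chromosome 3, 142058695 to 142083908, minus strand), had values of -1.19 and -0.45 in SFZ against 0.45 and 0.99 in deep AC. The smallest matching reads were 73 and 124 in SFZ, and 234 and 365 in deep AC. The differences averaged -1.54 ± 0.14 (SD, n = 2 rats), with an SE of 0.72 and an adjusted p of 0.549 by limma, and in both genes the zones did not overlap.

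The assembly factors varied more between the rats. Psmg2, which with Psmg1 starts the alpha ring, had values of 0.27 and 1.18 in SFZ against -0.34 and -0.27 in deep AC, with smallest matching reads of 269 and 519 in SFZ, and 181 and 206 in deep AC. The differences averaged 1.03 ± 0.60 (SD, n = 2 rats), with an SE of 0.58 and an adjusted p of 0.622 by limma. Psmg1 had values of -0.54 and 0.86 in SFZ against 0.22 and -0.22 in deep AC, and its differences of -0.76 and 1.08 had opposite signs. The partners of this dimer thus did not share a direction in rat 1.

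Psmg4, another factor of the alpha ring, had values of -0.72 and 0.29 in SFZ against -0.04 and 0.04 in deep AC, on the smallest matching reads of 63 and 130 in SFZ and 104 and 118 in deep AC. Psmd5, a chaperone of the base, was low in SFZ rat 1 alone, with values of -2.42 and 0.26 in SFZ against -0.26 and 0.64 in deep AC, with smallest matching reads of 78 and 513 in SFZ, and 358 and 722 in deep AC. Its mean was -1.27 ± 1.26 (SD, n = 2 rats; limma adjusted p = 0.593). Psmd9, the other chaperone of the base measured here, stood at -0.55 and 0.80 in the 2 rats. In all 5 assembly genes SFZ rat 2 was above SFZ rat 1, by a median of 1.01, against 4413 of the 8761 rows tested. The parts differed in this, with 4 of 7 alpha ring genes, 5 of 7 beta ring genes, 4 of 8 lid genes and 2 of 4 activators. Of Psmd1, Psmd2 and Psmd4 it held for 2.

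Psmc3ip, the member that is no subunit, had values of -0.26 and 1.44 in SFZ against -0.85 and 0.26 in deep AC, with a mean difference of 0.88 ± 0.42 (SD, n = 2 rats; limma adjusted p = 0.665). SFZ was higher within each rat, while SFZ rat 1 lay below deep AC rat 2.

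Over the members, the 2 SFZ libraries lay further apart than the 2 deep AC libraries. The median size of the difference was 0.64 between the 2 SFZ libraries and 0.25 between the 2 deep AC libraries, against 0.90 and 0.52 over all rows tested. For the cap genes these were 0.52 and 0.16. 31 of the 46 members were higher in SFZ rat 2 than in SFZ rat 1, and 14 were lower, against 4413 and 3987 of the 8761 rows tested. Across the 44 members above the floor in all libraries, the differences of the 2 rats had a Pearson's r of 0.21 and a Spearman's rho of 0.20. With the tested floor members Psma3l and Psmb9 included, these were -0.55 and 0.18. Genes are not independent replicates, and the values of a rat share its libraries, so these coefficients only describe the points.

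**Figure D4:**
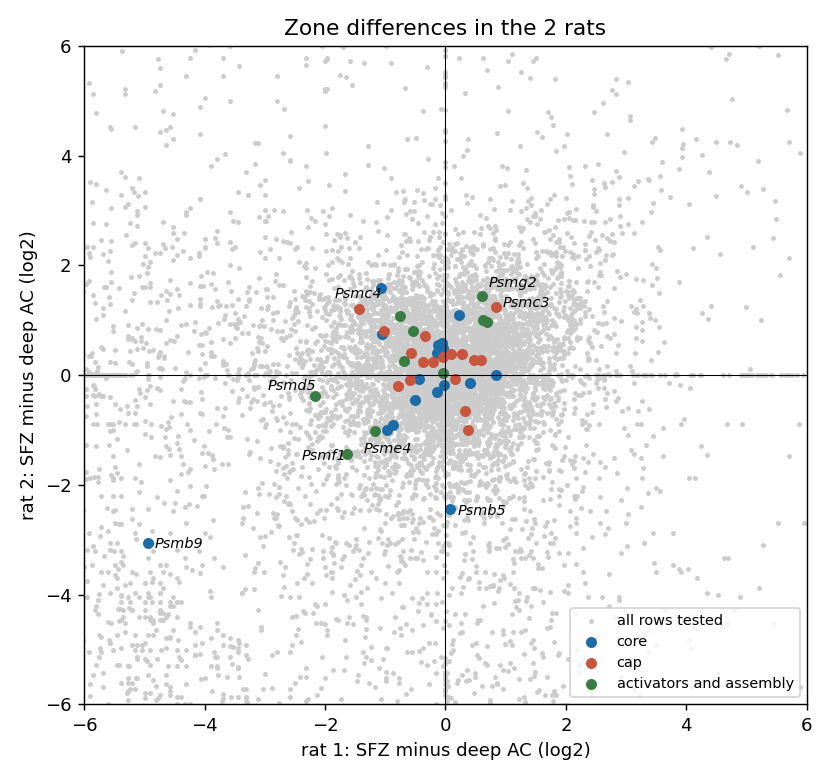
Within-rat log2 difference, SFZ minus deep AC, of rat 1 (x axis) against rat 2 (y axis) for the tested members of each class (coloured) over all rows tested (grey), with axes that end at 6 in each direction and leave out 761 grey rows. Among the coloured points, Psmb9 lies at -4.95 and -3.05, Psmb5 at 0.08 and -2.45, Psmd5 at -2.16 and -0.38 and Psmf1 at -1.64 and -1.44, while Psmb11 and Psmc4 lie left of 0 in rat 1 and above 0 in rat 2.

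Partners and regulators of the proteasome, a list of 36 genes of which 29 could be tested, had no common direction. None passed the test, against 0.0114% of all rows. In both rats, 10 of the 29 were higher in SFZ, against 25.2% of all rows, and 8 were lower, against 29.0%. The other 11 were neither, and the medians were 0.02 and 0.17. Adrm1, a ubiquitin receptor of the cap, had values of 0.46 and 0.93 in SFZ against -1.16 and -0.46 in deep AC, and Usp14, a ubiquitin protease that binds the cap, had 0.26 and 0.59 in SFZ against -0.26 and -0.85 in deep AC. Their mean differences were 1.51 and 0.97 (limma adjusted p = 0.693 and 0.558). Pomp, the maturation factor of the core, stood at -0.27 and 0.36. Nfe2l1, the transcription factor that raises proteasome genes when the proteasome is inhibited, had 0 reads in rat 1 and 65 in rat 2 in SFZ, and 6 and 28 in deep AC, so the rats went opposite ways. Ngly1, an enzyme that processes this factor, stood at 1.88 and 1.32, and Ddi2, the protease that cleaves it, at -1.28 and 0.20.

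Genes of the interferon response and its signalling, listed beside the immunoproteasome, showed no common direction. The list held the receptor genes Ifngr1 and Ifngr2 and the kinase genes Jak1 and Jak2, which act upstream of the response. These genes enter the counts and medians below. B2m and Gbp2 were listed at 0 in all 4 libraries. Of 18 genes, 13 were tested and none passed, against 0.0114% of all rows. In both rats, 3 of the 13 were higher in SFZ, against 25.2% of all rows, and 3 were lower, against 29.0%. The other 7 were neither, and the medians were -1.25 and 0.68. Tap1 and Tap2, encode the peptide transporter of antigen presentation. Tap1 had values of -4.94 and 2.84 in SFZ against 0.45 and -0.45 in deep AC. Tap2 had 4 reads in rat 1 and 3 in rat 2 in SFZ, while in deep AC it was at the floor in rat 1 and had 46 reads in rat 2, so neither followed Psmb9. Tapbp, a chaperone of the same pathway, was lower in SFZ in both rats at -2.13 and -5.82. Irf1, a transcription factor of the interferon response, stood at 2.03 and 0.68. Usp18 had 38 reads in rat 1 and 203 in rat 2 in SFZ, while in deep AC it was at the floor in rat 1 and had 21 reads in rat 2, so its size in rat 1 depends on the floor.

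Leukocytes express the immunoproteasome genes, and a list of 12 leukocyte markers was read beside them. Of 10 tested markers, 2 were higher in SFZ in both rats, against 25.2% of all rows, and 2 lower in both, against 29.0%. The summed reads of all 12 markers were 3333 and 1825 in SFZ against 3841 and 2000 in deep AC. For Ptprc, Lyz2 and Mrc1 these are only the smallest matching reads, so the sums are no measure of leukocyte content. C1qa, C1qb, C1qc and Tyrobp had 119, 91, 36 and 39 reads in SFZ rat 1 and none above the floor elsewhere, while Ptprc stood at -2.03 and -1.02. The 2 markers higher in SFZ in both rats were Lyz2, at 3.53 and 0.43, and Cd74, which had 40 reads in rat 1 and 95 in rat 2 in SFZ, with no deep AC library above the floor. Their part in the values of Psmb8 and Psmb9 was not tested. In these dissected areas, fewer cells of a type and less RNA per cell cannot be told apart.

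The labelled zones bore their known markers. Prg4, which encodes lubricin, stood at 2.11 and 3.48 and Col2a1, the main collagen of cartilage, at -2.51 and -2.60, while Sox9 was listed at 0 in all 4 libraries. All 7 tested markers of hyaline cartilage and all 3 of bone were lower in SFZ in both rats, and all 4 superficial zone markers were higher, though none of them passed the test. The bone markers stood at -8.75 and -10.27 for Ibsp, -7.76 and -9.36 for Alpl and -9.02 and -5.61 for Dmp1. Of striated muscle markers 2 could be tested. Tnni2 was lower in SFZ in both rats, at -9.66 and -10.47, while Ckm had 96 reads in SFZ rat 2 and none above the floor elsewhere. The part of bone or muscle RNA in the members' deep AC values was not tested. Of erythroid markers 1 could be tested, which was neither higher nor lower in both. The reads recovered, fully or as the smallest matching numbers, summed to between 3903587 and 4096786 per library. Fewer rows lay above the floor in SFZ, 8262 in rat 1 and 8390 in rat 2, than in deep AC, 10026 and 9237.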

How the data were processed

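RNA-seq values of 4 libraries, 1 of SFZ and 1 of deep AC from each of 2 rats, were used from 1 table. The deposited log2 values are scaled by TMM (trimmed mean of M values), per the name the authors gave the table, and the build is rn4 according to the submitters' processing notes. The sources used here name no aligner, counter or use of strand. Every row's median is within 1e-05 of 0, so the level had been removed. In rows above 0 in 1 library, 94.0% to 96.7% of values were whole reads (relative tolerance 1e-05) times a constant of that library, 0.923 to 1.02, which is the scaled value of 1 read, with values under 1 set to 1.

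From these, 3375 rows with a library at the floor gave reads directly. For 5454 rows the smallest whole reads matching all 4 values (relative tolerance 2e-06, sum up to 20000) were found. Tested on simulated data of 1500 rows, this gave the true reads in 92.7% of rows found and the true reads up to a common factor in 100.0%. The other 1960 rows took a level from the binary places of the values, a rough bound that held in 73.6% of the rows with known reads on which it was checked. In the main fit, levels served only for the minimum mean of 10 scaled reads and the trend of the spread. They also set which rows averaged 100 scaled reads or more. Quantile normalization and the alternative with a constant added before the log used levels as well. Values from these settings thus rest in part on the rough bound, which was the only level of 25 members.

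The 8761 rows above that minimum were fitted with limma 3.58.1 (R 4.3.3), with zone and rat as terms (eBayes with a trend, 1 residual degree of freedom), two-sided, adjusted by Benjamini-Hochberg with a threshold of 0.05. The titles tie both zones to 1 rat, which sets the pairing. The fit was tested on simulated data. A ± is the SD over 2 rats. SE is that of limma. A fold bound against 0 reads uses 3 counts over the group, set against the deep AC reads summed over the rats. With 2 rats, p-values rest on how far the 2 within-rat differences disagree and on the spread of all rows, within these 4 libraries only. Columns of other samples numbered 0.

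The members and lists were chosen with earlier results of these data known. The genes described in full were the catalytic subunits, all Psme, Psmf and Psmg genes, members at the floor, and up to 4 core and 4 cap genes at each end with the same sign in both rats; Psma1, Psma3, Psma4, Psma5, Psmb2, Psmb11, the cap genes outside this rule, Psmd5, Psmd9 and Psmc3ip were added after their values were seen, as were the genes named from the 2 pathway lists. The interferon motifs were added likewise. Alternatives were a fit without the rat, other minimum levels, median centring, quantile normalization, 1 added before the log, an untrended prior and leaving out libraries or members.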

Additional observations from a re-analysis of the deposited data

How the results depend on the processing

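The count of members past the threshold was 0 in the paired fit and in every alternative that kept all 4 libraries. Calls from the fits without 1 library are not read, since the spread then comes from 1 zone alone. The 2 SFZ libraries of Psmb9 share the floor value, so without a deep AC library it shows no spread of its own. The difference of Psmb9 was -4.95 without deep AC rat 2 and -3.05 without deep AC rat 1. With quantile normalization Psmb9 stood at -1.42. With no replicate block, 3 members had an unadjusted p under 0.05 and 0 passed after adjustment, and the pairing changed no other call of a member. The rows past the threshold, 1 in the paired fit, numbered 0 with no minimum level, with a minimum mean of 100 and with an untrended prior, 20 with quantile normalization, and 0 to 241 when 1 library was left out. The median of the core genes, -0.10, was 0.014 with a minimum mean of 100 scaled reads, which leaves out Psmb9, and -0.16 with quantile normalization. Without 1 library it ran from -0.19 to -0.018, the cap median from -0.034 to 0.28 against 0.02, and the median of activators and assembly factors from -0.50 to 0.38 against 0.07. The median of all members ran from -0.12 to 0.19. The members higher and lower in both rats were 9 and 11 without the 4 that overlap another expressed row, an alternative chosen after seeing the data. These counts need both rats and have no value without 1 library. The sign of some genes near 0 depended on the setting. Psme1 stood at -0.020 with median centring and -0.10 with quantile normalization, where Psma3l stood at 0.37 and Psmg4 at 0.16. Without 1 library, differences ran from -4.89 to 4.73 for Psma3l, -0.12 to 0.64 for Psmb7, -0.078 to 0.55 for Psmb10, -0.025 to 0.68 for Psmd12, -0.46 to 0.47 for Psme1, -0.54 to 0.86 for Psmg1 and -0.72 to 0.29 for Psmg4. Leaving aside Psmb9 without deep AC rat 2, the other 237 values of single genes kept their direction and side of the threshold, but not always their size. Without 1 library, Psmd1 ran from -0.62 to -0.057, Psmd4 from -0.86 to -0.14, Psma2 from 0.26 to 1.04, Psmg2 from 0.57 to 1.49, Psmb6 from -1.22 to -0.57, Psmb5 from -2.31 to -0.051, Psmd8 from 0.28 to 0.59, Psme2 from 0.57 to 1.10 and Psmf1 from -1.91 to -1.17. Why these values moved was not tested, apart from the members or libraries left out. Total depth is unknown, and with 2 rats only the spread of these libraries is known. In the fits without 1 library, the lone library of a zone was assumed to vary like the other zone.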
